A study of Homo sapiens with 9 samples.

Results

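The ERK pathway carries growth signals from receptors at the cell surface through RAS proteins and the kinases RAF, MEK and ERK to transcription factors in the nucleus. Active ERK switches on genes of its own inhibitors, so that the mRNA of these feedback genes is often read as a measure of pathway output. They encode the MAP kinase phosphatases DUSP4, DUSP5 and DUSP6, which remove the activating phosphates from ERK, and the Sprouty and SPRED proteins, which act on RAS and RAF. The PEA3 subfamily of ETS transcription factors, ETV1, ETV4 and ETV5, is the branch of the output that regulates other genes. Cells of the breast cancer line MDA-MB-231 carry activating mutations in this cascade. The 10 genes *DUSP4*, *DUSP5*, *DUSP6*, *SPRY2*, *SPRY4*, *SPRED1*, *SPRED2*, *ETV1*, *ETV4* and *ETV5* were followed here. They were taken as the transcript clusters whose single gene symbol is one of these names, and all 10 were found among the 22465 genes with a single symbol, each with 1 transcript cluster.

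Total RNA was measured on Affymetrix Human Transcriptome Array 2.0 microarrays in 3 groups of 3 arrays. Control cells (LUC) carry a shRNA to firefly luciferase, the second group carries a shRNA to *ELOVL5*, which encodes an elongase of polyunsaturated fatty acids, and the third a shRNA to *IGFBP6*, which encodes a secreted binding protein of insulin-like growth factors. All groups are MDA-MB-231 cells, transduced with the same lentiviral vector and selected with puromycin, and each is 1 stable culture. For each knockdown the study went on with the culture of lowest target mRNA among those made, so a culture and its knockdown cannot be told apart. The RNA samples of a group were obtained independently from that culture, and p-values therefore reflect differences among RNA samples only, which may be technical.

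The targets followed the labels. *ELOVL5* mRNA was 3.15 times lower after its own knockdown (adjusted p = 8.71e-05 from limma) and *IGFBP6* mRNA 1.54 times lower after its own (adjusted p = 0.00183). Without control replicate 2 or *IGFBP6* knockdown replicate 2 the latter fall was under 1.5 times (log2 fold change -0.58 and -0.52). *IGFBP6* was dim, at 6.13, 6.21 and 6.03 on the control arrays and at 5.65, 5.30 and 5.56 after its knockdown. The median of all array values was 5.02. Markers of this mesenchymal-like line, *VIM*, *CD44*, *EGFR* and *AXL*, lay between 12.44 and 15.53 on the log2 scale on all arrays, and the hormone receptor genes *ESR1* and *PGR* between 4.03 and 4.79, with the epithelial gene *EPCAM* from 7.46 to 8.07. Of the genes of other cells, the endothelial *PECAM1* and *CDH5* lay between 3.45 and 4.85 and the leukocyte genes *PTPRC* and *CD3E* between 4.38 and 5.46, near or below the median of all array values, 5.02. The summed log2 intensity of the leukocyte pair was 9.77 to 10.08 on the control arrays, 9.20 to 9.42 upon *ELOVL5* knockdown and 8.93 to 9.33 upon that of *IGFBP6*. This came mostly from *PTPRC*, with group means of 5.28, 4.77 and 4.51 in that order. Those of *CD3E* were 4.65, 4.52 and 4.61. The part of this difference in the results was not tested. All values of the 10 genes lie well above the median of 5.02, from 7.34 to 13.08.

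The *IGFBP6* knockdown changed part of the feedback genes, and in both directions. *DUSP5*, *SPRED2* and *ETV4* rose, *DUSP4* fell, and 6 did not reach both limits of a call, an adjusted p below 0.05 and 1.5 times. The count of 3 higher and 1 lower of 10 stands beside 16.3% of all genes called in this comparison, 7.82% higher and 8.49% lower. The median log2 fold change of the 10 genes was 0.16, against -0.0067 over all genes, and the median size of a change was 0.58, against 0.16. All genes include dim ones. Of the 22465, 10847 had a mean log2 of 6 or more, as all 10 genes did. Calls and fold changes were not summarized over these alone. Upon *ELOVL5* knockdown, limma called 0 of the 10 genes, where 1.36% of all genes were called. Of the 10 genes, 4 had an unadjusted p under 0.05 (*SPRY4*, *DUSP5*, *SPRED1* and *SPRED2*), which 13.2% of all genes had. Without moderation of the spread 0 were called too, and with array weights 1 was called, *SPRY4*. The median log2 fold change of the 10 genes was -0.02 there, against -0.017 over all genes, and the median size 0.18, against 0.09. Compared directly, the same 4 genes differed between the knockdowns, beside 13.1% of all genes called. Their directions were those between the *IGFBP6* knockdown and the control. The control arrays do not enter this difference of means, but they do enter the estimate of spread behind its p-value. For *DUSP5* this direct call depended on single arrays, as given below.

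**Figure D1:**
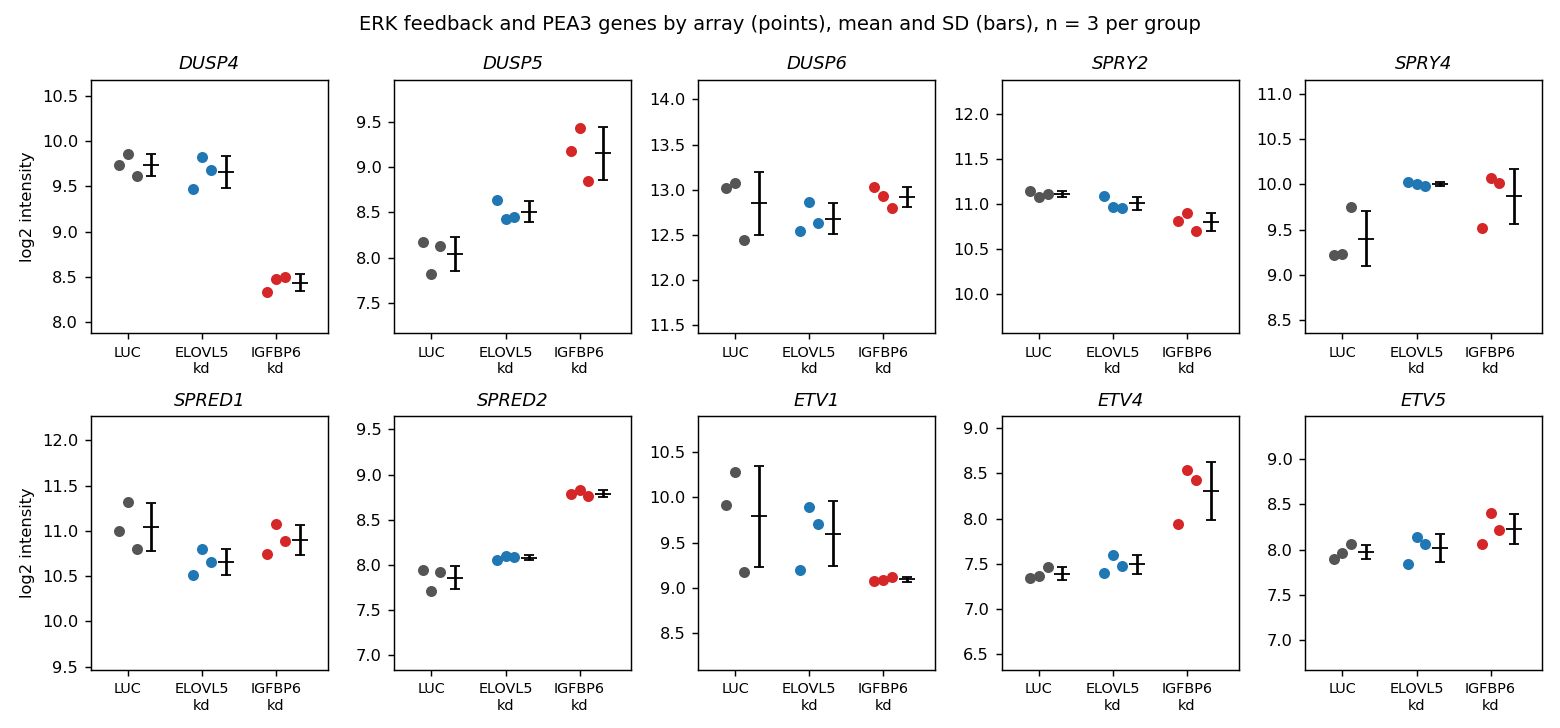
Log2 intensity of the 10 genes on each array (points; vertical axis, the same span in every panel, not starting at 0) for control cells (LUC), the *ELOVL5* knockdown and that of *IGFBP6*, with the group mean and SD (bars, n = 3). The *IGFBP6* knockdown arrays of *DUSP4* lie below all other arrays, and those of *DUSP5*, *SPRED2* and *ETV4* above all others.

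The phosphatase genes went in 3 different ways. *DUSP4* (transcript cluster TC08001099.hg.1) encodes a phosphatase of the nucleus. Its log2 intensity was 9.74, 9.86 and 9.62 on the control arrays, 9.47, 9.83 and 9.68 upon *ELOVL5* knockdown and 8.33, 8.48 and 8.50 upon that of *IGFBP6*. The last 3 arrays lie below the other 6, with a gap of 0.97 to the lowest of them. *DUSP4* fell 2.47 times upon *IGFBP6* knockdown (log2 fold change -1.30, standard error 0.11, adjusted p = 2.25e-05 from limma) and was 2.33 times lower there than upon *ELOVL5* knockdown (adjusted p = 5.81e-05). The groups of the control and of the *ELOVL5* knockdown overlapped, with a log2 fold change of -0.08 and a 95% interval from -0.33 to 0.17.

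*DUSP5* (TC10000801.hg.1) encodes a phosphatase of the nucleus that prefers ERK and binds it there. It was at 8.17, 7.82 and 8.13 on the control arrays, 8.64, 8.43 and 8.45 upon *ELOVL5* knockdown and 9.18, 9.43 and 8.85 upon that of *IGFBP6*. The 3 groups do not overlap, and the *ELOVL5* knockdown lies between the others. *DUSP5* rose 2.16 times upon *IGFBP6* knockdown (log2 fold change 1.11, standard error 0.15, adjusted p = 5.00e-04 from limma). Upon *ELOVL5* knockdown the log2 fold change was 0.47 (95% interval 0.13 to 0.81), which did not pass (adjusted p = 0.24). The direct difference between the knockdowns was 0.65 (adjusted p = 0.0162). It did not pass without *ELOVL5* knockdown replicate 2 or 3 (adjusted p = 0.0617 and 0.0645), without *IGFBP6* knockdown replicate 2 (0.0508) or without moderation (0.0706), and with array weights it was under 1.5 times (0.49).

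*DUSP6* (TC12001796.hg.1) encodes the ERK phosphatase of the cytoplasm and is a standard readout of the pathway. It was at 13.02, 13.08 and 12.45 on the control arrays, at 12.54, 12.87 and 12.63 upon *ELOVL5* knockdown and at 13.03, 12.93 and 12.80 upon that of *IGFBP6*. All groups overlapped. The log2 fold change was -0.17 (95% interval -0.54 to 0.20) upon *ELOVL5* knockdown and 0.07 (-0.30 to 0.44) upon that of *IGFBP6*. Control replicate 3 lay below all other arrays. Without it the values were -0.37 (-0.65 to -0.091) and -0.13 (-0.41 to 0.15), and the former interval holds a fall of 1.5 times. So do the intervals upon *ELOVL5* knockdown without its replicate 2 (-0.67 to 0.14) and without moderation (-0.64 to 0.30). No fit that left out 1 array called *DUSP6* upon *ELOVL5* knockdown (limma, adjusted p of 0.292 or more).

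**Figure D2:**
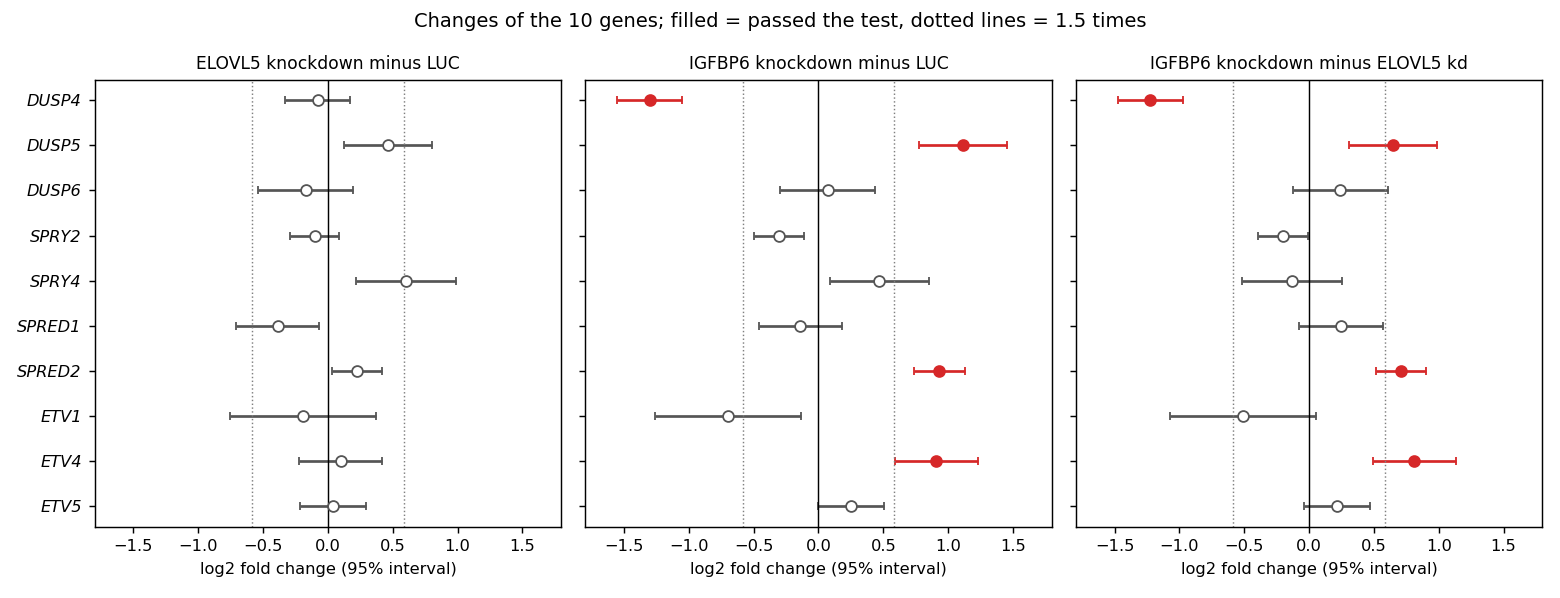
Log2 fold change of each gene with its 95% interval (horizontal axis) in the 3 comparisons. Filled points passed the test and dotted lines mark 1.5 times; *DUSP4* stands at -1.30 and *DUSP5* at 1.11 in the middle panel, while *DUSP6* stands at 0.07.

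Sprouty proteins hold back the signal between the receptor and RAF, and neither of the Sprouty genes followed here passed the test. *SPRY2* (TC13000763.hg.1) was at 11.14, 11.08 and 11.11 on the control arrays, at 11.09, 10.97 and 10.96 upon *ELOVL5* knockdown and at 10.81, 10.90 and 10.70 upon that of *IGFBP6*. The last group lies below the other arrays, by a small margin: the log2 fold change against the control was -0.31 (adjusted p = 0.033 from limma), which is less than 1.5 times, and its 95% interval ran from -0.50 to -0.12. Against the *ELOVL5* knockdown it was -0.20 (adjusted p = 0.163).

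*SPRY4* (TC05001880.hg.1) was at 9.22, 9.23 and 9.75 on the control arrays and at 10.03, 10.00 and 9.98 upon *ELOVL5* knockdown, where the groups do not overlap. The log2 fold change of 0.60 (95% interval 0.22 to 0.99) is 1.52 times and did not pass over all transcript clusters (adjusted p = 0.171); with array weights it did (0.62, adjusted p = 0.0323). Upon *IGFBP6* knockdown the arrays gave 9.52, 10.07 and 10.02 and overlapped the control (log2 fold change 0.47, adjusted p = 0.0997). This comparison turned on single arrays: *SPRY4* passed without control replicate 3 (0.65, adjusted p = 0.0217) and without *IGFBP6* knockdown replicate 1 (0.65, adjusted p = 0.0178), as well as with array weights (0.60, adjusted p = 0.0137). The knockdowns did not differ from each other beyond their spread (log2 difference -0.13, 95% interval -0.52 to 0.25).

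SPRED proteins bring neurofibromin, which switches RAS off, to the membrane. *SPRED2* (TC02001923.hg.1) was at 7.94, 7.71 and 7.92 on the control arrays, at 8.05, 8.10 and 8.09 upon *ELOVL5* knockdown and at 8.78, 8.83 and 8.76 upon that of *IGFBP6*. The 3 groups do not overlap, and both knockdown groups spread by less than 0.1 on the log2 scale. *SPRED2* rose 1.91 times upon *IGFBP6* knockdown (log2 fold change 0.93, standard error 0.09, adjusted p = 3.98e-05 from limma) and was 1.64 times higher there than upon *ELOVL5* knockdown (adjusted p = 3.71e-04). Upon *ELOVL5* knockdown its log2 fold change was 0.22 (95% interval 0.03 to 0.42, adjusted p = 0.357). *SPRED1* (TC15000259.hg.1), its paralog, did not pass the test in any comparison. It was at 11.00, 11.32 and 10.80 on the control arrays, at 10.51, 10.80 and 10.65 upon *ELOVL5* knockdown and at 10.74, 11.07 and 10.89 upon that of *IGFBP6*. The groups overlapped or touched, with log2 fold changes of -0.39 (95% interval -0.71 to -0.07, adjusted p = 0.324) and -0.14 (-0.46 to 0.18, adjusted p = 0.636).

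*SPRED2* is the only one of the 4 called genes with a promoter in the sequence table used here, and its promoter is shown for that reason, at both annotated starts. A transcript cluster gives 1 value for the gene and does not tell the starts apart. Each stretch runs from 150 bases before a start to its first base, from RefSeq in build GRCh38.p14, minus strand, with matches to the AP-1 motif in capitals. The stretches lie at chr2:65432599-65432749 for the outer start and at chr2:65366778-65366928 for the inner start.
SPRED2 outer start: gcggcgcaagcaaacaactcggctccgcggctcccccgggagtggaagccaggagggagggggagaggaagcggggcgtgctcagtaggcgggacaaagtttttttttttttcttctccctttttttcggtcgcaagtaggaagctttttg
SPRED2 inner start: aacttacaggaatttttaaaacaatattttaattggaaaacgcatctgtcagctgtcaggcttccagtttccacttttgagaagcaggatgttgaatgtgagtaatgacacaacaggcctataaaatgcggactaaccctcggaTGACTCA
Windows from 250 bases before to 50 after a start were searched on both strands for an ETS motif, CCGGAAG, and the AP-1 motif, TGANTCA. The inner window of *SPRED2* holds 2 AP-1 matches, TGACTCA, which begins 6 bases before the start and is shown above, and TGAATCA, which begins at base 35 after it. The outer window holds 0. Of the 10 genes, 6 have windows in the table, 14 windows in all. Of these, 1 holds an AP-1 match and 0 hold the ETS motif, beside 7.71% and 10.3% of all 35116 windows. These are matches of letters only.

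Of the PEA3 factors, *ETV4* alone passed the test. *ETV4* (TC17001560.hg.1) was at 7.34, 7.37 and 7.47 on the control arrays, at 7.40, 7.60 and 7.48 upon *ELOVL5* knockdown and at 7.94, 8.54 and 8.43 upon that of *IGFBP6*. The last group lies above the other 6 arrays, and its replicate 1 is the lowest of it. *ETV4* rose 1.88 times (log2 fold change 0.91, standard error 0.14, adjusted p = 0.00129 from limma) and was 1.75 times higher than upon *ELOVL5* knockdown (adjusted p = 0.00345). Upon *ELOVL5* knockdown the log2 fold change was 0.10 (95% interval -0.22 to 0.42).

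*ETV5* (TC03003333.hg.1) was at 7.90, 7.96 and 8.06 on the control arrays, at 7.84, 8.14 and 8.06 upon *ELOVL5* knockdown and at 8.06, 8.40 and 8.22 upon that of *IGFBP6*. Its log2 fold changes were 0.04 (95% interval -0.22 to 0.30) and 0.25 (-0.0022 to 0.51), and neither passed (adjusted p = 0.956 and 0.19). *ETV1* (TC07001152.hg.1) varied most between control arrays, at 9.91, 10.28 and 9.18 (SD 0.56). It was at 9.20, 9.89 and 9.71 upon *ELOVL5* knockdown and at 9.07, 9.09 and 9.12 upon that of *IGFBP6*, below all other arrays. The log2 fold change of -0.70 (95% interval -1.26 to -0.13) upon *IGFBP6* knockdown did not pass (adjusted p = 0.0954). Without control replicate 3 it was -1.002 and passed (adjusted p = 0.00668).

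Counting every gene, whether called or not, the *IGFBP6* knockdown arrays did not overlap the control arrays for 6 of the 10 genes, 3 higher and 3 lower, beside 37.7% of all genes, 18.2% higher and 19.5% lower. Between the knockdowns the same count held, beside 39.8% of all genes, 20.9% higher and 18.9% lower. The *ELOVL5* knockdown arrays did not overlap the control for *DUSP5*, *SPRY4* and *SPRED2*, all higher, beside 23.7% of all genes, 9.91% higher and 13.8% lower. The median SD of the 10 genes was 0.16 on the control arrays, 0.13 upon *ELOVL5* knockdown and 0.14 upon that of *IGFBP6*, where all genes of mean log2 6 or more had 0.13, 0.083 and 0.16.

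Set beside their neighbours in the genome, *DUSP4*, *DUSP5* and *ETV4* kept their calls upon *IGFBP6* knockdown and *SPRED2* did not. For each gene the median of its 40 nearest expressed protein-coding genes was subtracted on each array. The neighbours of *DUSP4* lay 0.26 higher upon *IGFBP6* knockdown than in the control, and against them *DUSP4* fell by 1.56 on the log2 scale (limma, adjusted p = 2.15e-06). Those of *DUSP5* lay 0.34 higher, and *DUSP5* rose by 0.77 against them (adjusted p = 0.00203). The neighbours of *ETV4* lay 0.068 higher, and *ETV4* rose by 0.84 (adjusted p = 1.46e-04). Those of *SPRED2* lay 0.36 higher, and the rise of *SPRED2* against them was 0.57, less than 1.5 times (adjusted p = 0.00131). In the direct comparison of the knockdowns, *ETV4* and *DUSP4* kept their calls in this way, whereas *DUSP5* (0.43, adjusted p = 0.0554) and *SPRED2* (0.49, adjusted p = 0.00505) did not. Between the *IGFBP6* knockdown and the control, the neighbours of *SPRY4* lay 0.27 higher, and *SPRY4* stood 0.20 above them (adjusted p = 0.33). In the same comparison those of *ETV1* stood at -0.045, and *ETV1* at -0.65 against them (adjusted p = 0.0543). The neighbours of *SPRY2* stood there at -0.225, close to the gene itself, which differed from them by -0.082 (adjusted p = 0.592). Whether the segments differ in copy number between the cultures was not tested.

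**Figure D3:**
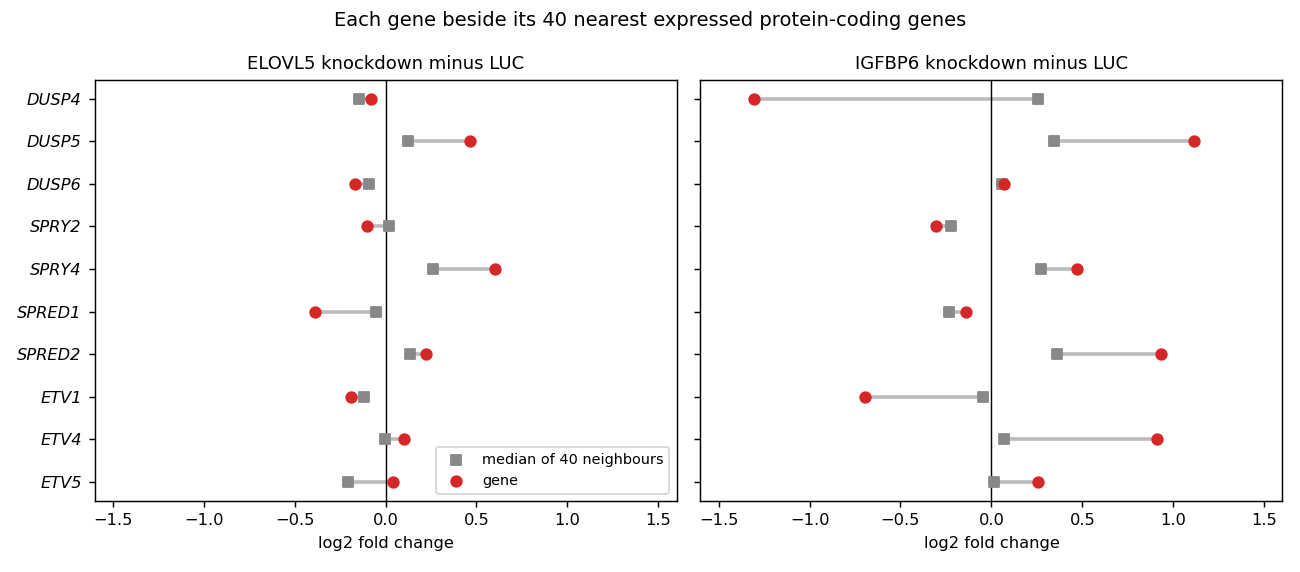
Log2 fold change of each gene (circles) and the median change of its 40 nearest expressed protein-coding genes (squares) on the horizontal axis, for both knockdowns against the control. For *DUSP4* the neighbours stand at 0.26 and the gene at -1.30; for *SPRED2* the neighbours stand at 0.36 and the gene at 0.93.

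Of 69 other genes of the pathway in 5 lists, 62 were analysed here. With *IGFBP6* silenced, 1 rose and 13 fell, beside 7.82% of all genes higher and 8.49% lower. Upon *ELOVL5* knockdown, 2 rose and 0 fell, beside 1.36% called, and 14 had an unadjusted p under 0.05, beside 13.2% of all genes. Both of these rises were lost without any one array of the *ELOVL5* knockdown, without control replicate 1 and without *IGFBP6* knockdown replicate 3. Compared directly, 2 were higher and 10 lower with *IGFBP6* silenced, beside 6.5% and 6.64% of all genes.

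Of 12 genes of the core cascade, from adaptors and RAS to ERK, 1 fell upon *IGFBP6* knockdown and 0 rose. Of all genes, 8.49% fell. An unadjusted p under 0.05 in either direction was found for 8 of the 12, and for 36.6% of all genes. The gene that fell was *KSR1*, a scaffold that brings RAF, MEK and ERK together (log2 fold change -0.74, adjusted p = 0.00144 from limma). Its arrays were at 5.99, 5.58 and 5.72, below the control at 6.35, 6.64 and 6.52. It was also lower than upon *ELOVL5* knockdown (log2 difference -0.66, adjusted p = 0.00386), by less than 1.5 times without *IGFBP6* knockdown replicate 2 (-0.57). *MAP2K1*, which encodes MEK1, rose upon *ELOVL5* knockdown by 0.66 (adjusted p = 0.0395), from 10.51, 10.89 and 10.79 to 11.41, 11.41 and 11.35. This call was also lost without control replicate 2 or 3 (adjusted p = 0.0577 and 0.0824), without moderation (0.164) or with median centring (0.0911), and was below 1.5 times against the neighbours (0.58). Upon *IGFBP6* knockdown, *MAP2K1* was 0.52 higher, less than 1.5 times (adjusted p = 0.0158), and passed without *IGFBP6* knockdown replicate 1 (0.64), without control replicate 2 (0.60) and with array weights (0.59).

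Of 11 other negative regulators, 3 fell upon *IGFBP6* knockdown and 0 rose, beside 8.49% of all genes lower. An unadjusted p under 0.05 was found for 7, beside 36.6% of all genes. *PEBP1*, which encodes an inhibitor that binds RAF kinases, was at 13.08, 13.10 and 13.01 on the control arrays and at 11.25, 11.60 and 11.61 upon *IGFBP6* knockdown. It fell 2.98 times (log2 fold change -1.58, standard error 0.11, adjusted p = 5.57e-06 from limma) and was lower than upon *ELOVL5* knockdown too (-1.49, adjusted p = 1.6e-05). *SPRY1*, a Sprouty gene beside those above, fell by 0.72 on the log2 scale (adjusted p = 0.00945), below 1.5 times without control replicate 1 (-0.57) and not past the threshold without moderation (0.0524). *PEA15*, whose product keeps ERK in the cytoplasm, fell by 0.63 (adjusted p = 0.0027), also below 1.5 times without control replicate 1 (-0.58). Upon *ELOVL5* knockdown, limma called 0 of these 11, where 1.36% of all genes were called, and 2 had an unadjusted p under 0.05, beside 13.2%.

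Of 5 MAP kinase phosphatases that act on several kinases or prefer p38 and JNK, *DUSP1* and *DUSP10* fell upon *IGFBP6* knockdown. Of all genes, 8.49% fell. *DUSP1* fell by 0.84 on the log2 scale (limma, adjusted p = 0.00143). *DUSP10* was at 10.79, 9.77 and 9.47 on the control arrays, at 9.07, 9.01 and 8.83 upon *ELOVL5* knockdown and at 9.13, 8.56 and 8.28 upon that of *IGFBP6*. Its control arrays spread widely (SD 0.69), and its fall of 1.35 (adjusted p = 0.0117) did not pass without moderation (0.079). Upon *ELOVL5* knockdown, *DUSP10* was 1.04 lower, which did not pass (adjusted p = 0.19).

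Of 23 other ETS factors, *ELK3* rose and *ETS2*, *ELF4* and *SPDEF* fell upon *IGFBP6* knockdown. This is 17.4% of the list, close to the 16.3% of all genes called. *ELK3* belongs to the ternary complex factors, which ERK phosphorylates. It was at 11.90, 11.81 and 12.48 on the control arrays, at 12.87, 12.85 and 12.90 upon *ELOVL5* knockdown and at 13.39, 13.65 and 13.79 upon that of *IGFBP6*, with no overlap between groups. It rose 2.92 times upon *IGFBP6* knockdown (adjusted p = 1.1e-04 from limma) and was higher there than upon that of *ELOVL5* (log2 difference 0.74, adjusted p = 0.0139), a call lost without *IGFBP6* knockdown replicate 3 (0.0555), without moderation (0.07) and against its neighbours (0.28, adjusted p = 0.143). Upon *ELOVL5* knockdown its log2 fold change of 0.81 did not pass (adjusted p = 0.0554). It did without control replicate 3 (1.02, adjusted p = 0.00652), without *IGFBP6* knockdown replicate 1 (0.046) and with array weights (0.0107). It also passed against its neighbours (0.875, adjusted p = 0.0037), with quantile normalization (0.0354) and with the replicate block (0.0361). The adjustment over genes (0.0373) and the removal of dim transcript clusters (0.0306) gave a call too. The other fits did not call it. *ETS2*, itself a target and substrate of the pathway, fell by 1.51 on the log2 scale (adjusted p = 1.21e-05) and *ELF4* fell by 1.33 (adjusted p = 3.82e-05). Both were also lower than upon *ELOVL5* knockdown (-1.05 and -1.20), *ETS2* by less than 1.5 times against its neighbours (-0.41). The fall of *SPDEF*, an epithelial factor, by 0.68 (adjusted p = 0.0363) came from groups that overlap. It was lost without moderation (0.131) and without any one of 6 arrays (adjusted p up to 0.13), and kept without control replicate 3 or replicate 1 of either knockdown. *EHF*, another epithelial factor, was higher upon *ELOVL5* knockdown (log2 fold change 1.03, adjusted p = 0.0424, lost without moderation at 0.216 and without control replicate 3 at 0.127 or *IGFBP6* knockdown replicate 2 at 0.0557) and lower with *IGFBP6* than with *ELOVL5* silenced (-1.64, adjusted p = 3.61e-04). *ETV6*, a repressor, was lower in the same direct comparison (-0.81, adjusted p = 0.0125), not without *ELOVL5* knockdown replicate 3 (0.0572) or without moderation (0.0689).

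Of 11 other transcripts often read as output of the pathway, 4 fell upon *IGFBP6* knockdown and 0 rose, beside 8.49% of all genes lower. The same 4 had an unadjusted p under 0.05, a share of 36.4% that is close to the 36.6% of all genes. *CCND1*, which encodes cyclin D1, was at 14.90, 14.68 and 14.75 on the control arrays, at 14.79, 14.64 and 14.72 upon *ELOVL5* knockdown and at 13.53, 13.62 and 13.62 upon that of *IGFBP6*. It fell 2.28 times (adjusted p = 9.54e-06 from limma). *MYC* fell 2.39 times (adjusted p = 2.17e-04) and the immediate early gene *IER3* 2.10 times (adjusted p = 0.0024; 6 transcript clusters carry its symbol and the brightest stands for it). *KCNN4*, a potassium channel gene, fell by 0.67 on the log2 scale (adjusted p = 0.0363), a call lost without moderation (0.13) and without any one of 6 arrays, with a log2 fold change of -0.44 without control replicate 2, and kept in the fits that left out control replicate 3 or replicates 1 or 2 of the *ELOVL5* knockdown. All of these were also lower than upon *ELOVL5* knockdown (log2 differences from -1.28 to -0.95), and *EPHA4*, a receptor gene named after its value was seen, was higher (0.95, adjusted p = 0.00794), not without moderation (0.0557). The early genes *FOS* (log2 fold change 0.067, 95% interval -0.15 to 0.29), *EGR1* (0.48, -0.064 to 1.03) and *FOSL1* (0.61, -0.099 to 1.33), named after their values were seen, did not pass upon *IGFBP6* knockdown. For 2 of them this turned on single arrays: *FOSL1* passed without control replicate 3 (1.06, adjusted p = 0.00265), and *EGR1* without *IGFBP6* knockdown replicate 1 (0.75, adjusted p = 0.035) and with array weights (0.72, adjusted p = 0.037). Upon *ELOVL5* knockdown, limma called 0 of the 11, beside 1.36% of all genes, and 3 had an unadjusted p under 0.05, beside 13.2%.

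**Figure D4:**
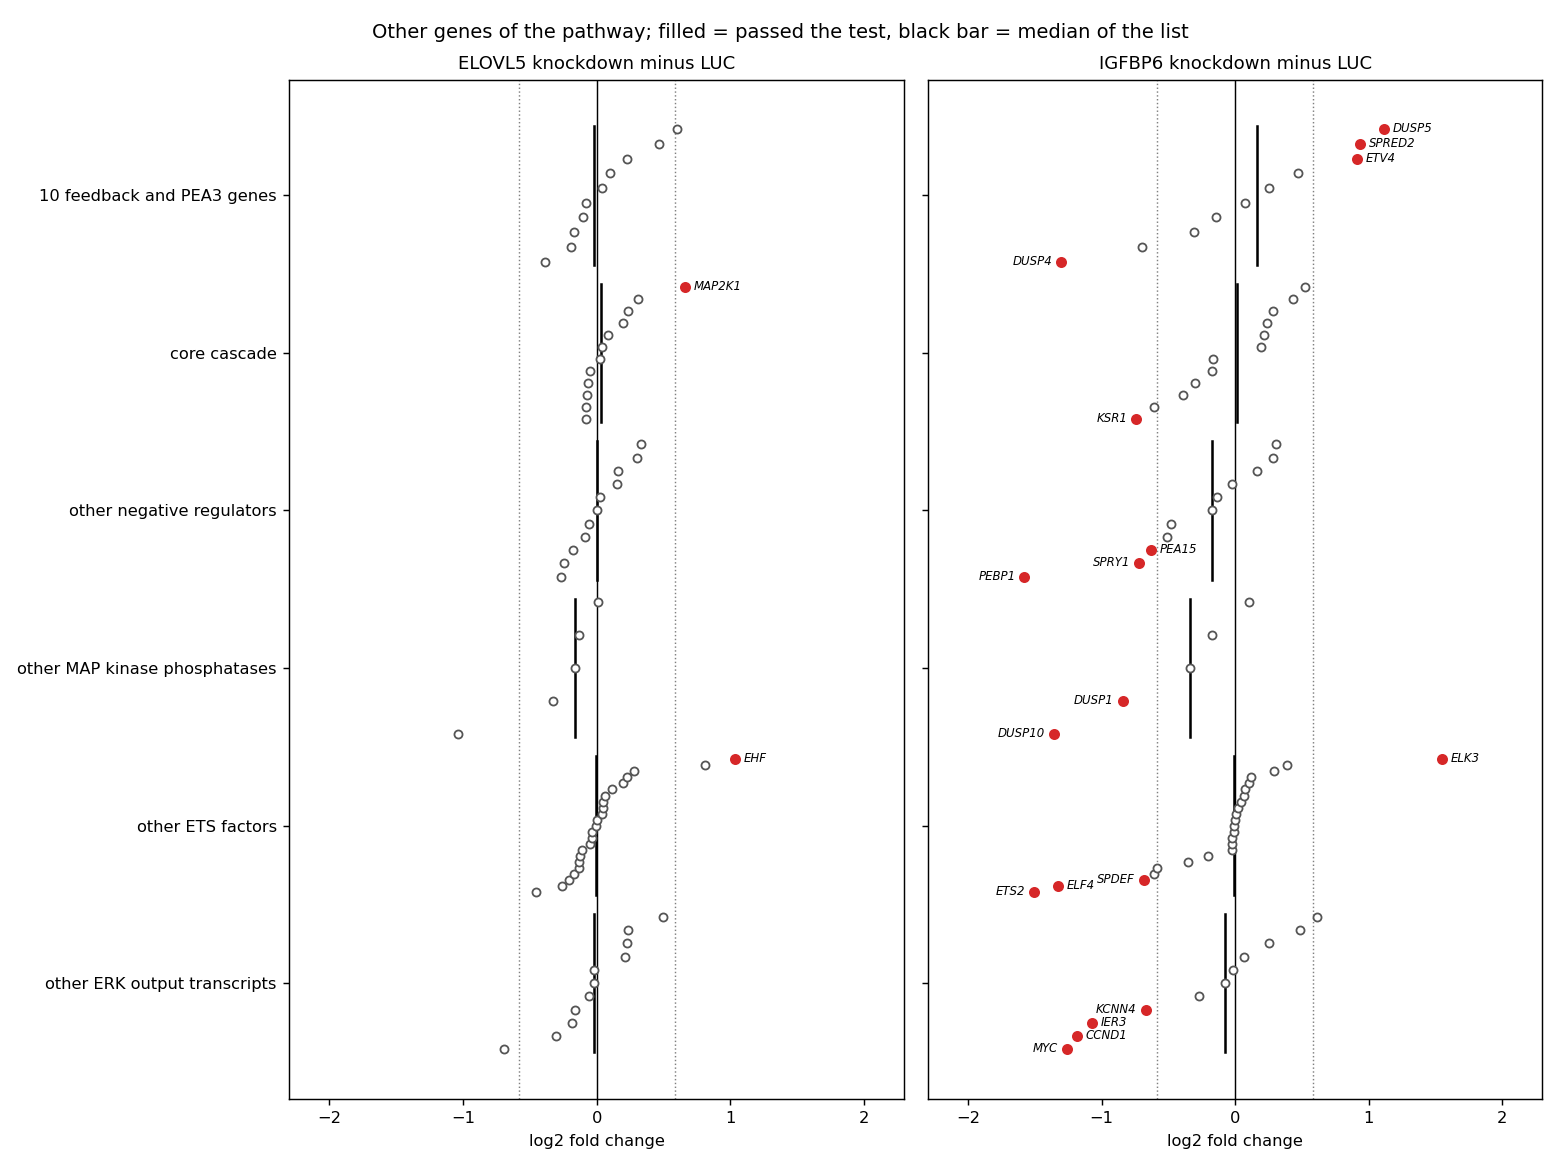
Log2 fold change (horizontal axis) of every gene of the 10 and of the 5 further lists (rows; points within a row are ordered by value) for both knockdowns against the control. Filled points passed the test, black bars are medians and dotted lines mark 1.5 times; upon *IGFBP6* knockdown 14 of 62 list genes are filled, and *ELK3* is the one to the right.

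The 3 genes whose profile over the 9 arrays lay closest to that of *DUSP4*, after the control mean of each gene was subtracted, were *TRAFD1*, *RRAGB* and *DDX17* (Euclidean distance 0.28, 0.31 and 0.33 on the log2 scale). *DDX17* fell by 1.47 and *TRAFD1* by 1.38 on the log2 scale upon *IGFBP6* knockdown. Their likeness is a description of these 9 arrays, which share 1 control group.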

How the data were processed

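The authors deposited 1 log2 intensity for each transcript cluster and array, made with RMA in Transcriptome Analysis Console 4.0.0.25; the RMA options and the genome build of the probes are not given in the sources used here. The table holds 67528 transcript clusters on 9 arrays with 2 decimals. Of these, 23781 carry 1 gene symbol, and the one with the highest mean stands for each of 22465 genes. The labels describe an extraction from frozen tumor samples, although every sample is labelled as a cell line.

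All 9 arrays entered a single limma fit (version 3.58.1, R 4.3.3; lmFit, eBayes, no covariate), and p-values were adjusted by Benjamini-Hochberg over all 67528 transcript clusters. Calls needed an adjusted p below 0.05 together with 1.5 times or more. With 3 arrays a group, the smallest p of an exact permutation test is 0.1. The same limma steps were also run on simulated arrays with known fold changes. Of changes of 1.5 times, 16.4% to 19.4% were called there, depending on the comparison. A change of this size lies at the fold threshold itself, so an estimate below it was not called whatever its p. Of changes of 2 times, 64.2% to 73.1% were called, and of 4 times, 97% to 98.5%. In each comparison only 66 or 67 of 67528 simulated transcript clusters had each of these changes. In the data, 3665 of 22465 genes were called upon *IGFBP6* knockdown. The adjustment of p depends on how many genes change, so these rates do not give the share of changes found or missed in the data. The number of arrays limits the precision.

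The members, lists and tests were chosen with earlier results of these data known. The text names all 10 members, up to 4 called genes of each list and comparison by size of change, the targets, and the 3 genes nearest in profile to the member of the largest change. Neighbours were ordered by a table of human genes (GRCh38.p14), whose coordinates were not otherwise used, among protein-coding genes whose mean log2 was 6 or more. Alternatives changed 1 choice at a time: moderation, the groups fitted, the replicate block, array weights, median centring, quantile normalization, the removal of dim transcript clusters (kept with log2 6 or more on 3 arrays or more), the adjustment over genes, the mean of all transcript clusters of a gene, the fold threshold, the neighbours and leaving out each array. Promoter sequences are from RefSeq. Plots came from matplotlib 3.10.9 (Python 3.11.15).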

Additional observations from a re-analysis of the deposited data

How the results depend on the processing

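Of 570 values of the 10 genes under 19 alternative fits in 3 comparisons, 546 kept direction and call, 8 lost the call (*DUSP5* and *SPRED2*, as given above), 5 gained it (*SPRY4* and *ETV1*) and 11 changed sign, each of a gene that was not called. Against the neighbours these were *DUSP4* after the knockdown of *ELOVL5* (0.065), *SPRED1* after that of *IGFBP6* (0.0917), and *SPRY2* (0.0417) and *ETV5* (-0.0050) between the knockdowns. *DUSP6* after the knockdown of *IGFBP6* was -0.0339 with array weights. Without 1 array the log2 fold change ran from -0.165 to 0.015 for *DUSP4*, from -0.495 to 0.055 for *ETV1* and from -0.023 to 0.13 for *ETV5* after the knockdown of *ELOVL5*, from -0.13 to 0.185 for *DUSP6* after that of *IGFBP6* and from -0.23 to 0.042 for *SPRY4* between the knockdowns.

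Counts of the 10 genes moved as follows. After the knockdown of *ELOVL5*, 1 rose with array weights. After that of *IGFBP6*, 1 in place of 3 rose by at least 2 times and 2 in place of 1 fell with the adjusted p alone or without control replicate 3; without 1 array, 3 to 4 rose and 1 to 2 fell. Between the knockdowns, 1 in place of 3 was higher against the neighbours, 0 at 2 times, and 2 to 3 without 1 array. Of the list genes, after the knockdown of *ELOVL5* 1 rose with 2 groups fitted, 0 with median centring, 0 without moderation and 1 at 2 times (2 in the fit reported), and 1 in place of 0 fell with array weights (*EPHA4*) and 1 with the replicate block (*DUSP10*); without 1 array 0 to 3 rose and 0 to 1 fell (*EPHA4* without control replicate 3). After that of *IGFBP6*, 3 in place of 1 rose with array weights and against the neighbours, 4 with the adjusted p alone and 1 to 3 without 1 array (3 without *IGFBP6* knockdown replicate 1, 2 without control replicate 2 or 3), while 7 in place of 13 fell by at least 2 times. Between the knockdowns 0 in place of 2 were higher without moderation and at 2 times, and 1 to 3 without 1 array (1 without *IGFBP6* knockdown replicate 3). Same-numbered arrays of different groups correlated between -0.0712 and 0.438 in their deviations from the group means. Those of different number correlated between -0.303 and 0.204. The numbers were not taken to pair samples in the fit reported, although these values do not exclude a shared replicate effect. The replicate block changed no call of the 10 genes (*DUSP4* -1.30 after the knockdown of *IGFBP6*). Of the list genes named above, the block added *DUSP10* (adjusted p = 0.0473) and *ELK3* (0.0361) after the knockdown of *ELOVL5* and *EHF* (0.0147) after that of *IGFBP6*, and removed *SPDEF* there (0.0504). The causes were not tested. Neither scaling alternative moved the median of all genes by over 0.1.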
